A study of Mus musculus with 12 samples.

Results

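Tumor cells can blunt an immune attack by displaying ligands for inhibitory receptors or by releasing galectins. The transcripts of 10 such genes, *Cd274*, *Pdcd1lg2*, *Cd276*, *Cd47*, *Pvr*, *Tnfrsf14*, *Nt5e*, *Lgals1*, *Lgals3* and *Lgals9*, were followed here in B16-F10 cells, a mouse melanoma line. They were chosen by name, as checkpoint ligands and galectins, out of 23022 listed genes, and all 10 had a row. RNA-seq values were deposited for 12 libraries, 3 from each of 4 conditions. All cells expressed Cas9 and were derived from a single sorted Cas9 clone. NTC cells carried a non-targeting guide pair and were kept without IFNγ or exposed to it (their genotype is written as no template control in the labels). DKO cells carried a guide pair against *Mbnl1* and *Mbnl2*, genes of RNA-binding proteins that regulate splicing, and were likewise kept without IFNγ or exposed to it. After selection the guide-bearing cells were used as a population and not as clones, and per the study the targeted proteins were not fully lost. Dose and duration of IFNγ are not in the sample labels.

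As background, PD-L1, the product of *Cd274*, binds PD-1 on T cells and lowers their activation. IFNγ acts through its receptor and JAK kinases to induce IRF1, which in turn activates *Cd274*, so PD-L1 is a known brake that tumor cells apply when T cells release IFNγ. Galectins are lectins that bind β-galactoside sugars on cell-surface proteins. Galectin-1 and galectin-9 can impair or kill T cells, and galectin-3 can hold receptors apart on the T cell surface. Which sugars a galectin can bind is set by glycosyltransferases, since sialic acid added by ST6GAL1 masks the galactose that galectin-1 needs.

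*Cd274* (ENSMUSG00000016496) and *Pdcd1lg2*, the genes of both PD-1 ligands, were neighbors on chr19 of GRCm38, at chr19:29367455-29388095 and chr19:29410919-29471161, with 22823 bp and no annotated gene between them in GENCODE M21. The galectin genes lay on different chromosomes, *Lgals1* at chr15:78926725-78930465, *Lgals3* at chr14:47367751-47386160 and *Lgals9* at chr11:78962974-78984946. The remaining members were at chr9:58524298-58555437 (*Cd276*), chr16:49800533-49915010 (*Cd47*), chr7:19903578-19921160 (*Pvr*), chr4:154921933-154928563 (*Tnfrsf14*) and chr9:88327197-88372092 (*Nt5e*). RefSeq promoter windows (GRCm38.p6) were matched for 8 of the 10 genes and none was matched for *Pvr* and *Lgals1*. The 250 bases before each start were searched on both strands for GAAANNGAA, a pair of half-sites of the kind that IRF proteins bind. It was present in 3 of these 8 genes, *Cd274*, *Lgals9* and *Tnfrsf14*, and in 7.13% of 32851 promoter windows overall. The match began 76 bases before the start in *Cd274*, 54 bases before it in *Lgals9* and 63 bases before it in *Tnfrsf14*. These 3 sites are shown because the members include an IFNγ-regulated gene, with the match in capitals and each sequence read along the gene's own strand. The 30 bases of *Tnfrsf14* lie inside an exon of a longer GENCODE transcript.
*Cd274*, chr19:29367278-29367407, plus strand: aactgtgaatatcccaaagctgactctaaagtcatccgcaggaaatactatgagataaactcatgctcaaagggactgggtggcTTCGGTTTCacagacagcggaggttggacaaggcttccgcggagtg
*Lgals9*, chr11:78984955-78985084, minus strand: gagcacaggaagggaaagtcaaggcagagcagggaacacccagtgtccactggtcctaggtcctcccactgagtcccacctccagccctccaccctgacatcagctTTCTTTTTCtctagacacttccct
*Tnfrsf14*, chr4:154928122-154928151, minus strand: ctattttttctTTCATTTTCacttttcctt
The GAS motif TTCNNNGAA, a known element of IFNγ-activated promoters, and the E-box CACGTG had no match in the windows of the 8 genes, while 7.02% and 6.02% of all windows held them. A kB site, the motif that NF-κB binds, was matched in the windows of *Lgals3* and *Pdcd1lg2* and in 7.25% of all windows.

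TPM are scaled per transcript length, so levels can be set side by side between genes. In untreated NTC cells the order ran from *Lgals1* at 1751 ± 26.7 TPM (SD, n = 3) through *Lgals3* at 82.1 ± 7.51, *Cd47* at 36.7 ± 2.84, *Pvr* at 36.6 ± 3.73, *Lgals9* at 21.1 ± 2.57, *Cd276* at 4.99 ± 0.0833 and *Cd274* at 3.18 ± 0.499 to *Tnfrsf14* at 1.14 ± 0.125. *Lgals1* was 21.3 times as high as *Lgals3*, and *Cd47* and *Pvr* were the only neighbors in this order of 8 whose libraries overlapped. *Pdcd1lg2*, the gene of the second PD-1 ligand PD-L2, was listed at 0 in 11 libraries and at 0.278 TPM in replicate 2 of untreated DKO cells. *Nt5e*, which encodes CD73 and makes extracellular adenosine from AMP, was listed at 0 in 10 libraries and reached at most 0.143 TPM. Both fell below the filter of at least 1 TPM in at least 3 libraries and were not tested, including after IFNγ. TPM carry no read depth, so how small a level could have been seen is unknown.

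**Figure D1:**
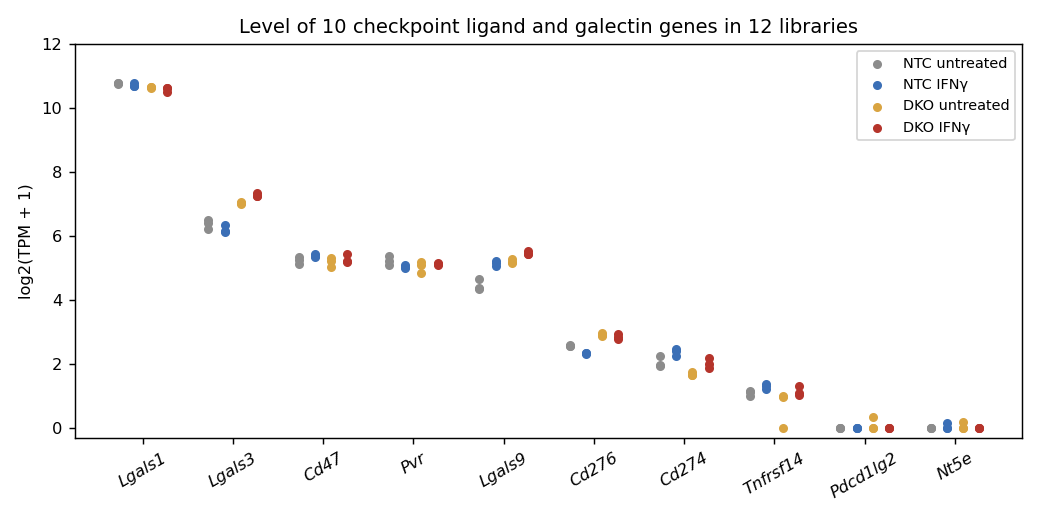
Levels of the 10 genes in all 12 libraries, as log2(TPM + 1) on the vertical axis, ordered by their mean in untreated NTC cells and colored by condition; each point is 1 library. *Lgals1* stands far above the rest, *Pdcd1lg2* and *Nt5e* lie at or near 0, and *Lgals3* and *Lgals9* are the genes whose points shift most between conditions.

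The cells and labels were checked first. The 7 melanocytic markers were all detected, and their sum was 16647 to 18642 TPM across NTC libraries and 11124 to 12414 TPM across DKO libraries. Of 10 leukocyte markers 5 were at 0 in every library, among them *Ptprc* and *Tyrobp*, and the list summed to at most 8.30 TPM. Of 10 receptor genes of immune cells, most of them for these ligands, 8 stayed under 1 TPM. The exceptions were *Sirpa* at 91.3 to 157 TPM and *Havcr2* at 1.76 to 3.03 TPM. *Mbnl1* had 55.6 to 63.9 TPM across NTC libraries and 41.1 to 47.5 TPM across DKO libraries, and *Mbnl2* 99.2 to 107 and 83.9 to 98.0 TPM. Both targeted transcripts were thus lower but still present, and TPM do not show whether they carried edits. All listed genes together came to 844185 to 874612 TPM per NTC library but 805782 to 827191 TPM per DKO library. A gene with an unchanged share of these sums would therefore be listed lower in DKO cells, which touches small differences such as that of *Lgals1* below.

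Differences were taken on the log2(TPM + 1) scale from 1 limma fit of all 12 libraries over the 11663 genes that passed the filter, 8 of the 10 members among them, with Benjamini-Hochberg adjustment over all of these genes and a threshold of 0.05. The scale understates changes of low genes. Nothing in the labels says that replicates were separate cultures, so the p-values measure the spread between these libraries. With 3 libraries against 3, an exact permutation test of a single gene cannot go below p = 0.1.

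IFNγ raised *Lgals9* and lowered *Cd276* in NTC cells, 2 of the 8 members tested, where 12.1% of all tested genes passed. In bulk RNA a change in the number of cells that express a gene and a change in RNA per cell cannot be told apart. The libraries of 5 members did not overlap between treated and untreated NTC cells, as held for 36.6% of all tested genes. In DKO cells no member passed, where 0.78% of all genes did, although 4 members had an unadjusted p under 0.05, against 9.59% of all genes, and 4 did not overlap, against 14.7% of all genes. The median over the 8 members was 0.06 in NTC cells and 0.18 in DKO cells, and over all tested genes 0.02 and 0.01. When the 2 responses were averaged, a comparison added after the data had been seen, *Lgals9* and *Cd274* passed, 2 of 8, against 10.2% of all genes. The difference between the responses of DKO and NTC cells passed for no member and for 4 genes in all, 0.0343%, and 2 members had an unadjusted p under 0.05, against 11.5% of all genes.

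DKO cells differed from NTC cells in 5 of the 8 members without IFNγ and in the same 5 with it. *Lgals3*, *Lgals9* and *Cd276* were higher and *Cd274* and *Lgals1* were lower. Across all genes 36.4% passed without IFNγ and 43.3% with it, so a large share of the transcriptome differed between the genotypes. Libraries did not overlap for 5 members in each comparison, against 51.6% and 49.9% of all tested genes. Averaged over both treatments, which was again added later, the same 5 members passed, against 53.2% of all genes. The 2 IFNγ comparisons and the 2 genotype comparisons reuse the same 12 libraries and are not independent of each other.

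**Figure D2:**
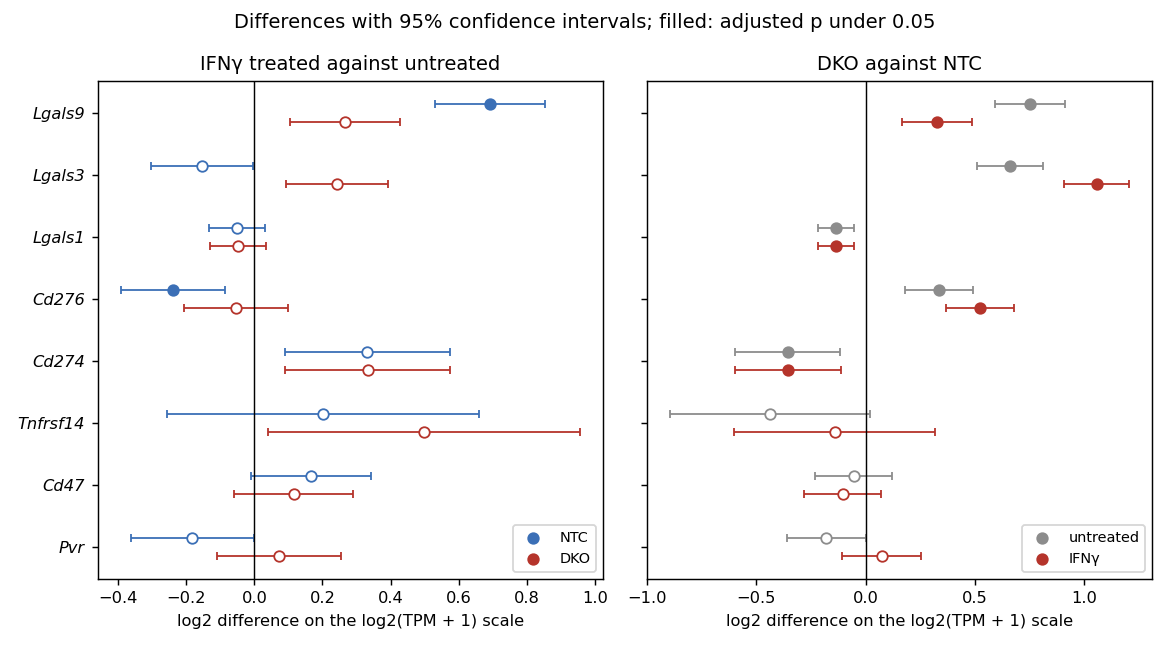
Differences of the 8 tested members on the log2(TPM + 1) scale (horizontal axis) with 95% confidence intervals, for IFNγ in each genotype on the left and for DKO against NTC at each treatment on the right; filled points passed the adjusted threshold. *Lgals3* lies far to the right at both treatments and *Lgals9* does so untreated, *Lgals9* has the largest response in NTC cells, and the responses of *Cd274* lie at the same place in both genotypes.

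Of the PD-1 ligands, *Cd274* was at 2.94, 2.85 and 3.75 TPM in untreated NTC cells and at 4.37, 4.55 and 3.82 TPM after IFNγ. In DKO cells it was at 2.16, 2.40 and 2.19 TPM untreated and at 3.62, 3.04 and 2.67 TPM after IFNγ. Treated libraries lay above untreated ones in both genotypes without overlap, and untreated DKO cells were the lowest condition. The response was 0.33 (SE 0.112) on the log2 scale in NTC cells and 0.33 (SE 0.112) in DKO cells, with limma adjusted p of 0.0674 and 0.329, neither past the threshold. Averaged over both genotypes it was 0.33 (SE 0.0795, limma adjusted p = 0.0222). That average lost its call when a trend with GC content and length was removed (0.27, adjusted p = 0.0639), and also without replicate 2 of untreated NTC, replicate 2 of treated NTC, replicate 1 of untreated DKO or replicate 1 of treated DKO cells, with limma adjusted p between 0.0547 and 0.0574. The responses of the genotypes differed by 0.00 with a 95% interval from -0.34 to 0.34, an interval wide enough to hold a difference as large as the response itself.

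*Cd274* fell by 0.36 (SE 0.112) on the log2 scale in DKO cells without IFNγ and by the same amount with it, with limma adjusted p of 0.0238 and 0.0205. Mean TPM in DKO cells were 0.708 times those in NTC cells untreated and 0.732 times after IFNγ. Averaged over treatments the fall was -0.36 (SE 0.0795, limma adjusted p = 0.00192), and this call held without any 1 of the 12 libraries. The separate calls were less firm. The untreated call was lost without replicate 3 of untreated NTC cells (-0.26, limma adjusted p = 0.113) and without replicate 1 or 3 of untreated DKO cells (0.0676 and 0.0655), and with a replicate block and the GC and length trend removed together (-0.33, 0.0513). The call with IFNγ was lost without replicate 1 or 2 of treated NTC cells or replicate 2 or 3 of treated DKO cells, with limma adjusted p from 0.0535 to 0.0775. It was also lost with the GC and length trend removed (-0.26, limma adjusted p = 0.0833, and 0.109 with the block as well) and with the same total in each library (-0.29, 0.0538). In these unstranded libraries, reads from 511 of the 3622 exonic bases of *Cd274* cannot be told from those of AC119228.1, a gene on the opposite strand. It has no row under that name in the table used here. On either strand, 12.4% of the 50-base stretches of *Cd274* also occur in other annotated transcripts. That share includes this overlap, and AC119228.1 held the most of these stretches.

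*Cd276* encodes B7-H3, a B7-family surface protein with inhibitory effects on T cells. It stood at 4.91, 5.08 and 4.99 TPM in untreated NTC cells and at 4.01, 4.14 and 4.08 TPM after IFNγ. In DKO cells it was at 6.31, 6.93 and 6.46 TPM untreated and at 6.70, 6.27 and 5.91 TPM treated. All 6 DKO libraries were above all 6 NTC libraries, and the treated NTC libraries were the lowest. *Cd276* was higher in DKO cells by 0.34 (SE 0.0713, limma adjusted p = 0.00236) untreated and by 0.52 (limma adjusted p = 7.55e-05) with IFNγ, calls that held without any 1 library. The fall in NTC cells after IFNγ, -0.24 (SE 0.0713, limma adjusted p = 0.0456), was near the threshold and passed in 2 of 12 fits that left out 1 library (replicate 2 or 3 of treated DKO cells), with adjusted p from 0.0364 to 0.126. It was -0.14 (limma adjusted p = 0.275) once the trend with GC content and length was removed. In DKO cells the response was -0.05 (limma adjusted p = 0.871), and the difference between the responses, 0.19 with an interval from -0.03 to 0.40, did not pass. *Gm10657*, which shares 416 exonic bases with *Cd276* on the opposite strand, was at 0.386 TPM or less in every library.

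*Cd47*, whose product binds SIRPα on macrophages and restrains phagocytosis, ranged from 31.5 to 42.7 TPM over the 12 libraries, and all 4 conditions overlapped at least 1 other. It differed by 0.17 (SE 0.0815, limma adjusted p = 0.177) after IFNγ in NTC cells and by 0.11 (limma adjusted p = 0.715) in DKO cells. Between genotypes it differed by -0.05 untreated and -0.11 with IFNγ, with limma adjusted p of 0.642 and 0.319.

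*Pvr*, whose product CD155 is seen by the inhibitory receptor TIGIT and the activating receptor DNAM-1, was at 27.8 to 40.4 TPM. The widest spread was among untreated libraries, with 40.4, 36.4 and 33.0 TPM for NTC cells and 33.4, 35.6 and 27.8 TPM for DKO cells. It differed by -0.18 (SE 0.0842) both for IFNγ in NTC cells and for DKO against NTC untreated, with limma adjusted p of 0.157 and 0.114. The response of DKO cells was 0.07 (limma adjusted p = 0.843), and the responses differed by 0.25 (SE 0.119, limma adjusted p = 0.436). The untreated genotype difference did pass without replicate 3 of untreated NTC (-0.25, limma adjusted p = 0.0463) or replicate 2 of untreated DKO cells (-0.25, 0.0432), and with the GC and length trend removed together with a replicate block (-0.18, limma adjusted p = 0.0422).

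*Tnfrsf14* encodes HVEM, which engages the inhibitory receptor BTLA. It lay just over the filter, at 0.996, 1.23 and 1.2 TPM in untreated NTC cells and 1.58, 1.48 and 1.32 TPM after IFNγ. In untreated DKO cells it was at 1.01, 0 and 0.958 TPM and in treated DKO cells at 1.16, 1.07 and 1.47 TPM. The value listed at 0, in replicate 2, set both comparisons that used it. Without that library the untreated genotype difference went from -0.44 to -0.11 and the response of DKO cells from 0.50 to 0.17. None of its comparisons passed.

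**Figure D3:**
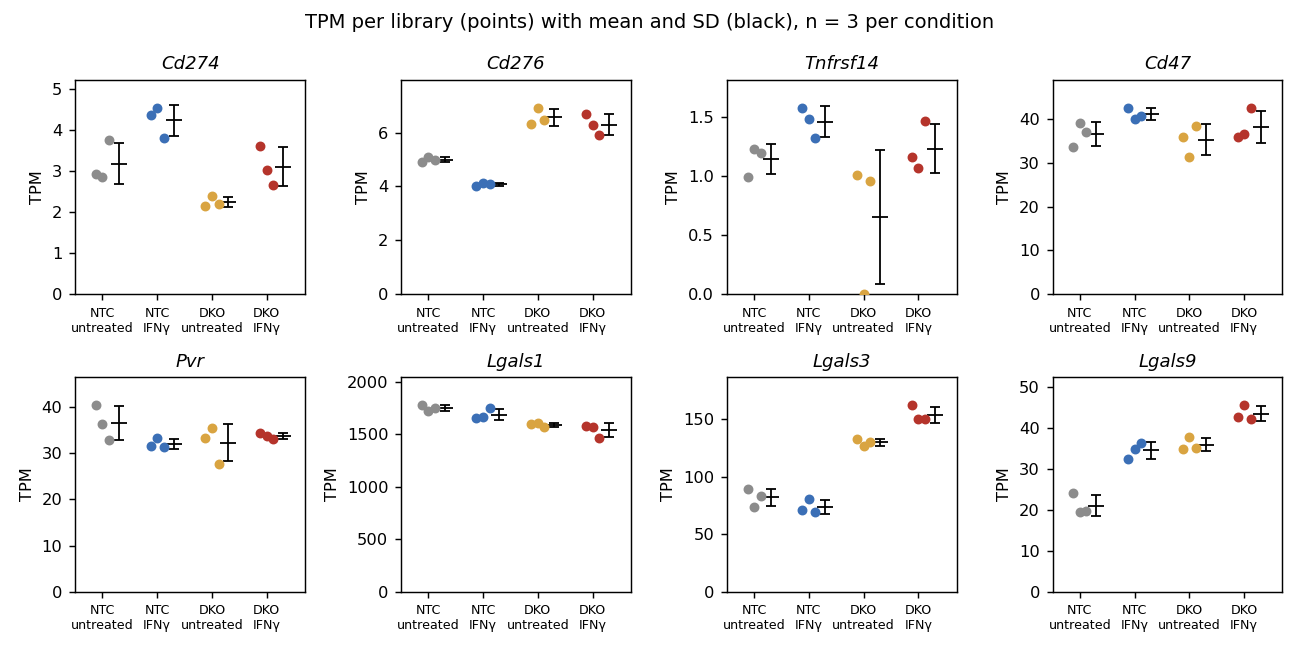
TPM of the 8 tested members in each library, with axes from 0; points are libraries, black marks are the mean and SD of 3 libraries, and the conditions run from untreated NTC on the left to treated DKO cells on the right. *Lgals3* and *Cd276* separate the genotypes, *Lgals9* rises from 21.1 TPM in untreated NTC to 43.6 TPM in treated DKO cells, and 1 library of *Tnfrsf14* lies at 0.

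Among the galectins, *Lgals9* was at 24.1, 19.4 and 19.8 TPM in untreated NTC cells and at 32.4, 34.9 and 36.4 TPM after IFNγ. It was at 35.0, 37.8 and 35.2 TPM in untreated DKO cells and at 42.8, 45.6 and 42.3 TPM in treated ones. Untreated DKO cells thus already carried the level of treated NTC cells, with overlapping libraries, and treated DKO cells were the highest condition. IFNγ raised *Lgals9* in NTC cells by 0.69 (SE 0.0747, limma adjusted p = 8.55e-05), or 1.64 times in mean TPM. In DKO cells the difference was 0.27 (SE 0.0747, limma adjusted p = 0.188), or 1.21 times in mean TPM. DKO cells exceeded NTC cells by 0.75 (limma adjusted p = 6.48e-06) untreated and by 0.33 (limma adjusted p = 0.00337) with IFNγ. These 3 calls held in all 20 alternative fits. The response was smaller in DKO cells by 0.42 (SE 0.106), with an unadjusted p of 0.0014 in limma but an adjusted p of 0.364, so the difference between the genotypes did not pass.

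*Lgals3* was at 88.9, 74.0 and 83.3 TPM in untreated NTC cells and at 71.2, 80.9 and 68.9 TPM after IFNγ. DKO cells had 133, 127 and 130 TPM untreated and 162, 150 and 150 TPM treated. All 6 DKO libraries were above all 6 NTC libraries, and treated libraries were above untreated ones in DKO but overlapped them in NTC cells. *Lgals3* was higher in DKO cells by 0.66 (SE 0.0695, limma adjusted p = 9.88e-06) untreated and by 1.06 (limma adjusted p = 1.46e-07) with IFNγ, or 1.58 and 2.09 times in mean TPM. Both calls held in all 20 alternative fits. IFNγ went with -0.15 (limma adjusted p = 0.149) in NTC and 0.24 (limma adjusted p = 0.202) in DKO cells. These responses of opposite sign differed by 0.39 (SE 0.0983) with an unadjusted p of 0.00139 in limma and an adjusted p of 0.364.

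*Lgals1*, the most abundant member, was at 1777, 1724 and 1751 TPM in untreated NTC cells and 1656, 1664 and 1750 TPM after IFNγ. It was at 1596, 1609 and 1572 TPM in untreated DKO and 1585, 1575 and 1462 TPM in treated DKO cells. All DKO libraries were below all NTC libraries by a small margin. *Lgals1* fell by 0.14 (SE 0.0379, limma adjusted p = 0.0124) in DKO cells untreated and by 0.13 (limma adjusted p = 0.0118) with IFNγ. When every library was scaled to the same sum over listed genes, the differences were -0.09 (limma adjusted p = 0.104) and -0.05 (limma adjusted p = 0.353), and neither passed. Averaged over treatments, the difference with this scaling was -0.07 (limma adjusted p = 0.0579), and its call was lost too. Without replicate 3 of treated NTC cells the difference with IFNγ was -0.11 (limma adjusted p = 0.0563). Its call was also lost when only the libraries of that comparison were fitted (-0.13, limma adjusted p = 0.0572). IFNγ differences were -0.05 in both genotypes and did not pass.

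Other galectin genes were measured beside them, 7 of 8 named of which 5 passed the filter. *Lgals3bp*, whose secreted glycoprotein binds galectin-3, went from 45.5 to 49.4 TPM in untreated NTC libraries to 116 to 138 TPM in treated ones, and from 59.9 to 61.9 TPM to 145 to 151 TPM in DKO libraries. It rose by 1.38 in NTC and by 1.28 in DKO cells (limma adjusted p = 1.72e-09 and 5.99e-09), and in each of the 2 genotype comparisons it was higher in DKO cells, by 0.34 and 0.25. *Lgals8*, a galectin with 2 sugar-binding domains, was lower in DKO cells untreated (-0.41, limma adjusted p = 0.000105) and with IFNγ (-0.49, limma adjusted p = 1.92e-05). *Lgalsl*, a galectin-like gene, was lower in treated DKO than in treated NTC cells (-0.20, limma adjusted p = 0.0408). Without IFNγ the genotypes differed by 0.03 (limma adjusted p = 0.824).

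Of 13 genes listed for the building or masking of galectin ligands, in DKO cells 2 rose and 5 fell without IFNγ, while 5 rose and 4 fell with it. Over all tested genes 36.4% passed without IFNγ and 43.3% with it. Both sialyltransferases named by the rule were lower. *St3gal1*, which caps core O-glycans with sialic acid, went from 67.1 to 73.1 TPM in untreated NTC to 41.4 to 42.5 TPM in untreated DKO libraries (-0.73, limma adjusted p = 1.26e-07) and differed by -0.65 with IFNγ. *St6gal1*, which adds the sialic acid that blocks galectin-1, went from 24.2 to 26.3 TPM to 15.3 to 16.7 TPM (-0.62, limma adjusted p = 3.85e-06) and differed by -0.59 with IFNγ. *Mgat2*, an enzyme of N-glycan branching, was higher by 0.39 untreated and 0.33 with IFNγ, whereas *Mgat4a*, another branching enzyme, was lower (-0.39, limma adjusted p = 0.000187). The median of the 13 was 0.01 untreated and -0.02 with IFNγ, against -0.01 and -0.01 over all tested genes.

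Of the IFNγ signaling genes upstream of *Cd274*, *Irf1* rose by 1.14 in NTC and 0.93 in DKO cells and *Stat3* by 0.39 and 0.32, with limma adjusted p of at most 0.0017. *Irf1*, the factor that binds the IRF motif, was higher in DKO cells both untreated (0.53, limma adjusted p = 7.83e-05) and with IFNγ (0.33, limma adjusted p = 0.00235). It stood at 8.19 to 8.24 TPM in NTC cells without IFNγ and at 10.7 to 13.4 TPM in the DKO cells, while *Cd274* was lower in the latter. *Ifngr2*, a receptor subunit, was higher in DKO cells by 0.60 and 0.44.

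Of 12 genes listed around the PD-L1 and CD47 proteins, 1 rose and 2 fell in DKO cells without IFNγ, while 4 rose and 2 fell with it. Over all tested genes 36.4% and 43.3% passed in these comparisons. *Cmtm6*, which keeps PD-L1 at the cell surface, was higher by 0.27 (limma adjusted p = 0.00845) untreated and 0.29 (limma adjusted p = 0.00539) with IFNγ. *Dnaja3*, a mitochondrial co-chaperone gene on this list, was lower by limma at both treatments (-0.45 and -0.41, adjusted p = 0.00015 and 0.000242). *Gsk3b*, a kinase that marks PD-L1 for degradation, was lower untreated (-0.34, limma adjusted p = 0.000382). With IFNγ its mean was 50.2 TPM in DKO cells against 59.5 TPM in NTC cells. *Qpct*, a paralog of the enzyme that modifies CD47 for SIRPα binding, was higher in treated DKO than in treated NTC cells (0.38, limma adjusted p = 0.00757). *Sirpa* itself, the receptor gene for CD47, was expressed by these melanoma cells at 134 to 157 TPM across NTC libraries and 91.3 to 102 TPM across DKO libraries, and was lower in DKO cells (-0.59 and -0.50, limma adjusted p = 3.62e-06 and 1.3e-05). *Havcr2*, the other receptor gene past the filter, rose with IFNγ in NTC cells (0.38, limma adjusted p = 0.0334). It was lower in treated DKO than in treated NTC cells (-0.37, limma adjusted p = 0.0112). The difference between its responses in DKO and NTC cells did not pass.

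Of the other inhibitory ligands and enzymes, 27 of 31 named genes were listed and 11 passed the filter. In DKO cells 2 rose and 3 fell without IFNγ, and 3 rose and 5 fell with it, where 36.4% and 43.3% of all tested genes passed. The widest change was that of *Btn2a2*, a butyrophilin whose protein restrains T cell activation. It was at 20.1, 18.6 and 20.2 TPM in untreated NTC and 18.1, 15.2 and 16.5 TPM in treated NTC cells. It was listed at 0, 0 and 0.316 TPM in untreated DKO cells and at 0 in all 3 treated DKO libraries. limma gave -4.24 untreated and -4.13 with IFNγ (adjusted p = 6.06e-11 and 8.29e-11), values that depend on the pseudocount because the DKO libraries are at or near 0. *Tgfb2*, a gene of the TGF-β family, went from 4.23 to 4.50 TPM in untreated NTC to 7.86 to 8.18 TPM in untreated DKO libraries (0.75, limma adjusted p = 2.17e-05). It was higher in treated DKO than in treated NTC cells by 0.74. *Pvrl2*, the gene of nectin-2, which like CD155 is bound by TIGIT, fell after IFNγ in NTC cells (-0.47, limma adjusted p = 0.0121) and was higher in DKO cells by 0.30 untreated and 0.78 with IFNγ. *H2-T23*, the mouse counterpart of HLA-E, rose after IFNγ in NTC cells by 0.62 (limma adjusted p = 0.00317), from a mean of 8.0 to 12.7 TPM. In DKO cells its mean went from 9.58 to 10.4 TPM, a response that did not pass. The difference between the responses of DKO and NTC cells did not pass for any of the 11 genes of this list, *H2-T23* and *Pvrl2* included. *Igsf11*, a ligand of the receptor VISTA, was lower in untreated DKO cells (-0.54, limma adjusted p = 0.000322). With IFNγ its mean was 8.9 TPM in DKO cells against 12.3 TPM in NTC cells.

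Of the stimulatory ligands, 6 of 14 listed genes were past the filter. With IFNγ none passed in limma in either genotype (0 of 6 had an unadjusted p under 0.05 in each). Between genotypes 36.4% of all tested genes passed without IFNγ and 43.3% with it. The 2 stimulatory ligand genes that passed were lower in DKO cells. Both are ligands of NKG2D, the activating receptor of NK cells. *Raet1e* was lower by limma (-0.53 and -0.47, adjusted p = 0.0201 and 0.0309) and *H60b* likewise (-0.49 and -0.39, adjusted p = 0.00787 and 0.0228). Both lay near the filter, at 0.94 to 3.03 and 0.686 to 2.04 TPM. *Raet1d* and *Ulbp1*, also genes of NKG2D ligands, did not pass, and their untreated means were not lower in DKO cells. *Raet1d*, at 11.1 to 15.9 TPM, had untreated means of 11.4 TPM in NTC and 13.3 TPM in DKO cells. For *Ulbp1* these means were 1.01 and 1.37 TPM, and with IFNγ its mean was 1.16 TPM in both genotypes.

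Although *Nt5e* was at or near 0, other genes of adenosine metabolism were expressed, 7 of 14 past the filter. In DKO cells 3 rose without IFNγ, and 4 rose and 1 fell with it, where 36.4% and 43.3% of all tested genes passed. *Cd38*, an NAD-consuming ectoenzyme that feeds adenosine production, went from 0.369 to 0.545 TPM in untreated NTC to 1.31 to 2.25 TPM in untreated DKO libraries (0.90, limma adjusted p = 0.000396). It was higher in treated DKO than in treated NTC cells by 0.71. *Slc29a1*, an adenosine transporter, was higher by 0.26 and 0.36. *Adk*, whose kinase removes adenosine by making AMP, was higher untreated (0.42, limma adjusted p = 0.00315). With IFNγ its mean was 47.0 TPM in DKO cells against 38.7 TPM in NTC cells. *Enpp3*, an ectoenzyme that cleaves extracellular nucleotides, was lower in treated DKO than in treated NTC cells (-0.48, limma adjusted p = 0.00286). Untreated, its mean was 1.32 TPM in DKO cells against 1.78 TPM in NTC cells. *Entpd2*, which hydrolyzes ATP outside the cell, fell after IFNγ in NTC cells (-0.49, limma adjusted p = 0.0145). It was higher in treated DKO than in treated NTC cells by 0.50 (limma adjusted p = 0.00181). The difference between its responses in DKO and NTC cells did not pass.

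**Figure D4:**
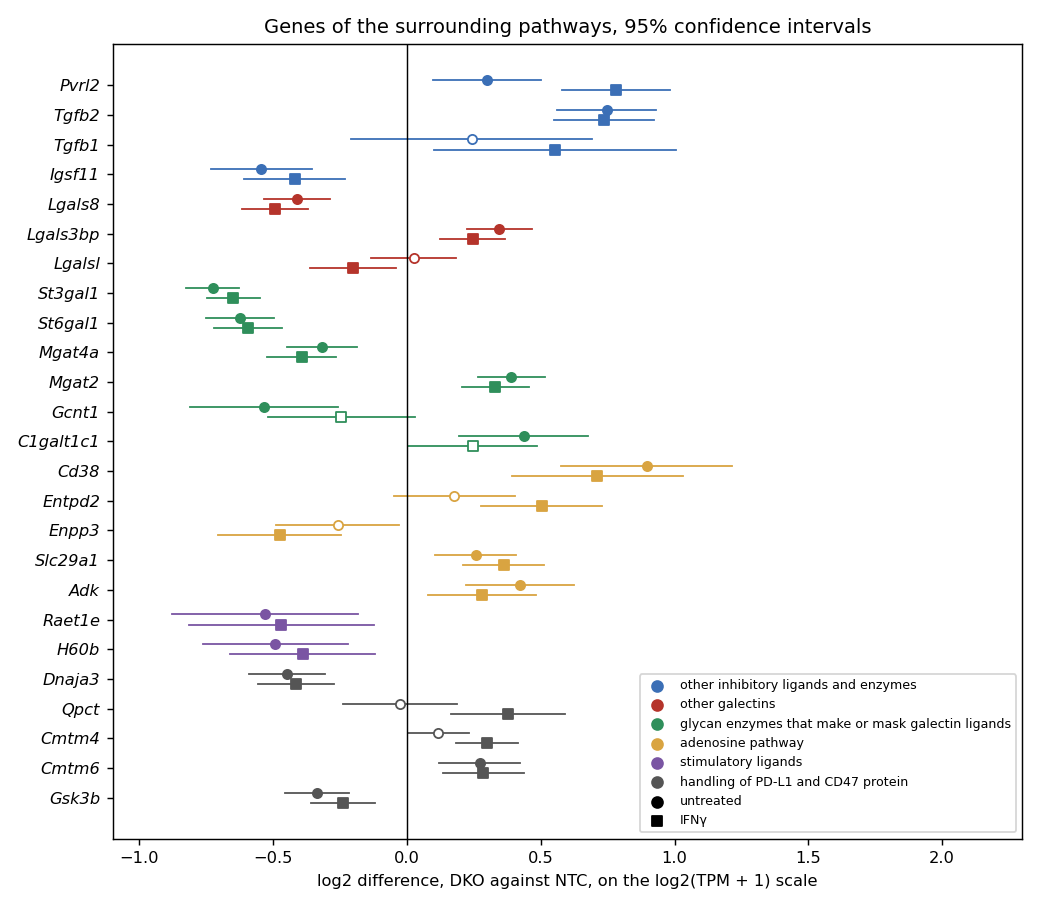
DKO against NTC for the 25 genes of 6 surrounding gene lists that the naming rule picked, apart from *Btn2a2*, on the log2(TPM + 1) scale with 95% confidence intervals; circles are untreated, squares are IFNγ, filled symbols passed the adjusted threshold and colors mark the list. *St3gal1*, *St6gal1* and *Lgals8* lie below 0 and *Tgfb2*, *Cd38* and *Lgals3bp* above 0 at both treatments.

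Markers of other cells were set beside the members that differed. *Cd68*, counted among leukocyte markers, had 1.51 to 2.62 TPM across NTC libraries and 2.40 to 6.49 TPM across DKO libraries, and was higher in DKO cells by 0.45 and 1.10 (limma adjusted p = 0.0194 and 3.27e-05). It moved in the direction of *Lgals3*, a gene that macrophages also express, while *Ptprc* and *Tyrobp* were at 0 in all 12 libraries. *Fcer1g*, the other leukocyte marker past the filter, did not pass between genotypes. Its means in NTC and DKO cells were 2.29 and 2.03 TPM untreated, and 1.44 and 1.53 TPM with IFNγ. *Lyz2*, below the filter, had a mean of 0.889 TPM in treated NTC and 0.385 TPM in treated DKO cells. *Col1a1* and *Col1a2*, made by fibroblasts, were at 2.28 TPM or less in every library and higher in DKO cells, by 0.40 and 0.36 untreated. The 7 melanocytic markers were lower in untreated DKO cells, and 6 of them with IFNγ, where 36.4% and 43.3% of all tested genes passed. The part of these shifts in the members' differences was not tested.

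The members did not vary as a block. Over the 12 libraries, which share conditions and scaling, Pearson's r on the log2(TPM + 1) scale was 0.90 between *Lgals3* and *Cd276*, 0.65 between *Lgals3* and *Lgals9*, -0.82 between *Lgals1* and *Lgals3* and -0.76 between *Cd274* and *Cd276*. The 3 members with the widest range of condition means were *Lgals3* (1.06), *Lgals9* (1.02) and *Cd274* (0.69). The genes most like *Lgals3* by Pearson's r over the 12 libraries were *Fn1*, encoding fibronectin (0.981), *Ttyh2* (0.978) and *Foxp1* (0.974). Among those most like *Lgals9* were *Maml2* (0.974) and *S100a10* (0.962), and those most like *Cd274* were *Rpp40* (0.933), *Zfp277* (0.931) and *Renbp* (0.924). *S100a10* rose from a mean of 86.9 TPM in untreated NTC to 130 TPM in treated DKO cells, with treated NTC at 112 and untreated DKO cells at 114 TPM, the same order of conditions as *Lgals9*. These values describe likeness over few libraries and carry no test.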

How the data were processed

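RNA-seq was measured in 12 B16-F10 libraries, 3 for each of 4 conditions. Libraries were poly(A)-selected and unstranded. The authors ran RSEM 1.2.4, calling Bowtie, on a merged transcript annotation and passed unaligned reads to TopHat against mm10 (a human build is also listed in the submitters' notes). The deposited table is titled as counts but holds TPM that the authors computed. These keep no read depth, a scaling between libraries is not stated, and 0 columns were left unused. No count test was therefore possible, and the test set for normalized values was used.

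A gene was tested if 3 or more libraries had 1 TPM or more. The fit on log2(TPM + 1) used limma 3.58.1 under R 4.3.3, with 1 mean per condition, a prior variance that follows expression, and 8 residual degrees of freedom. The fit was tested on simulated data. Other steps ran in Python 3.11.15 with pandas 2.3.3, numpy 2.4.6, matplotlib 3.10.9 and scipy 1.17.1. Coordinates came from GENCODE M21.

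The members, gene lists and tests were chosen with earlier results of these data known. Named genes are all members, *Mbnl1* and *Mbnl2*, at most 4 genes per list and comparison that passed, by size, and the 3 genes most correlated with each of the 3 members of widest range. Some items that this rule picks are not reported here. Alternatives were a pseudocount of 0.1, no filter, other scalings, a GC and length correction, a replicate block, only the libraries of a comparison, and each library left out. Effects averaged over genotypes or treatments were chosen after seeing the data. Protein sequences were not used here.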

Additional observations from a re-analysis of the deposited data

How the results depend on the processing

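The calls of *Lgals3*, *Lgals9* and *Cd276* for DKO against NTC and of *Lgals9* for IFNγ in NTC cells held under all alternatives. Of 2 members called for IFNγ in NTC cells, 1 remained, *Lgals9*, with no filter on low values, with the replicate block, with only the libraries of the comparison, with the GC and length trend removed and with that trend removed together with the block. Leaving out each library gave 1 to 2. With the same total in each library, 3 of 5 members passed for DKO against NTC with IFNγ, because *Cd274* and *Lgals1* did not. Leaving out each library gave 4 to 5 there and 4 to 6 untreated. Of the 2 members called for the averaged IFNγ effect, 1 passed with the GC and length trend removed, with or without the replicate block, and leaving out libraries gave 1 to 2. The causes of these losses were not tested. No member's called value changed sign, and uncalled values changed sign in 23 fits. Replicate numbers did not pair the libraries: of 18 correlations between same-numbered libraries, from -0.179 to 0.182, 4 were over 0.1. With the replicate block as a term, 661 genes rose and 457 fell with IFNγ in NTC cells, against 853 and 558 without it, and apart from the loss of *Cd276* the block alone changed no member's call.

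Over all genes, calls for IFNγ in NTC cells went from 1411 to 897 with no filter and to 516 with the GC and length trend removed (410 with the block as well), and ranged from 317 to 2023 when libraries were left out. For the difference between responses they went from 4 to 10 with no filter, 2 with the block, and 0 to 7 when libraries were left out. Of the genes called, 60.5% rose with IFNγ in NTC cells, but 46.0% with median-ratio scaling and 45.1% with the same total. For DKO against NTC 46.7% were higher untreated and 44.9% with IFNγ, but 60.6% and 65.2% with the same total. TPM hold no depth, so low genes such as *Tnfrsf14*, *Pdcd1lg2* and *Nt5e* have no known detection limit.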
